A study of Homo sapiens with 9 samples.

Results

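The genes described here belong to the integrated stress response that runs through the transcription factor ATF4. The set was chosen by gene symbol, with earlier results of these data known. It held the eIF2alpha kinase genes EIF2AK1, EIF2AK3 and EIF2AK4 (not EIF2AK2), and ATF4 and the stress factor CHOP (gene DDIT3). It also held genes that ATF4 is known to drive in stress, serine, proline and one-carbon metabolism. All 33 symbols were found among the 24204 genes of the deposited table. Of these, 28 passed the filter on low values and were tested among 11265 genes, and 5 (ASNS, CHAC1, FGF21, JDP2 and ALDH1L2) lay below it and are described by their values.

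RNA was sequenced from HepG2, an established human liver cancer cell line of hepatocyte-like character, in 9 libraries that fall into 3 groups of 3. All cells were grown in high-glucose DMEM with 10% fetal bovine serum, were infected with a lentivirus for 48 hours and were then selected with puromycin for a further 48 hours. The groups differed in the short hairpin RNA the virus carried, namely a control hairpin (shCtrl), shTRIB3-1 (labelled sh1) or shTRIB3-2 (labelled sh2), and the labels name no glutamine withdrawal for these samples. Both knockdown groups share the same 3 shCtrl libraries, each hairpin makes a selected pool and not a clone, and nothing says whether the replicates came from separate cultures, so that p-values measure the spread between these libraries.

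Background on the pathway comes first. The kinases HRI (EIF2AK1), PERK (EIF2AK3) and GCN2 (EIF2AK4) phosphorylate the translation factor eIF2alpha in response to heme or mitochondrial stress, unfolded protein in the endoplasmic reticulum and uncharged tRNA. General translation then falls while ATF4 mRNA is translated better, so that ATF4 protein is set largely after transcription and its mRNA level is not a measure of it. ATF4 binds composite C/EBP-ATF elements and raises genes for amino acid synthesis, amino acid transport, tRNA charging and, through CHOP, recovery of translation and cell death. TRIB3, a pseudokinase, is itself a target of ATF4 and CHOP and is known to bind ATF4 and lower its activity.

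The 21-base target sequences of the TRIB3 hairpins are shown because each comparison rests on them. Capitals mark the whole target, read 5′ to 3′ from the study's list of hairpins.

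shTRIB3-1: TGGATGACAACTTAGATACCG
shTRIB3-2: GCCGTGCTCTTCCGCCAGATG

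On GRCh38 the shTRIB3-1 target lies at chr20:388072-388092, in coding exon 2 of TRIB3, and was found in 4 annotated TRIB3 transcripts. The shTRIB3-2 target lies at chr20:391473-391493, in coding exon 3, and was found in 3 of them. Neither sequence matched a transcript of another gene exactly. TRIB3 itself was listed at 67.9, 65.8 and 66.6 FPKM (fragments per kilobase of gene, scaled to the fragments of the library) in shCtrl, at 34.1, 32.7 and 34.0 in shTRIB3-1, and at 20.6, 20.7 and 20.4 in shTRIB3-2. The 3 groups did not overlap, the remaining level was 50.3% and 30.8% of shCtrl, and the hairpins themselves differed, with TRIB3 lower in shTRIB3-2 (log2 fold change -0.71, adjusted p = 9.54e-09, limma).

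Below, a gene is called higher or lower where limma's moderated test on log2(FPKM + 0.1) gave a Benjamini-Hochberg adjusted p under 0.05 over all 11265 genes tested, and called past the fold threshold where the log2 fold change was also above 1 or below -1. The added 0.1 makes the fold changes of low genes come out too small. With shTRIB3-1, 8 of the 28 tested members were higher (28.6%) and 14 lower (50%), against 32.9% and 41.5% of all tested genes. With shTRIB3-2, 8 were higher (28.6%) and 16 lower (57.1%), against 35.4% and 40.5% of all tested genes. The median log2 fold change of the members was -0.13 with shTRIB3-1 and -0.34 with shTRIB3-2, beside -0.06 and -0.03 for all tested genes. Most genes of these libraries therefore passed the test in some direction, and the sections that follow turn on the sizes of the changes and on which members moved which way. In these bulk libraries a lower level in every cell and a smaller share of cells with the transcript cannot be told apart.

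Past the fold threshold with shTRIB3-1 were 2 members that were higher, ATF3 and PPP1R15A (7.14%, against 5.39% of all tested genes), and 2 that were lower, ALDH18A1 and PSAT1 (7.14%, against 6.1%). With shTRIB3-2 they were 3 higher members, ATF3, PPP1R15A and GDF15 (10.7%, against 6.06%). The other 7 were lower members, ALDH18A1, CTH, EIF4EBP1, NUPR1, PHGDH, PSAT1 and SHMT2 (25%, against 6.27%). The members were chosen with earlier results known, so a share above that of all tested genes could follow from the choice.

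**Figure D1:**
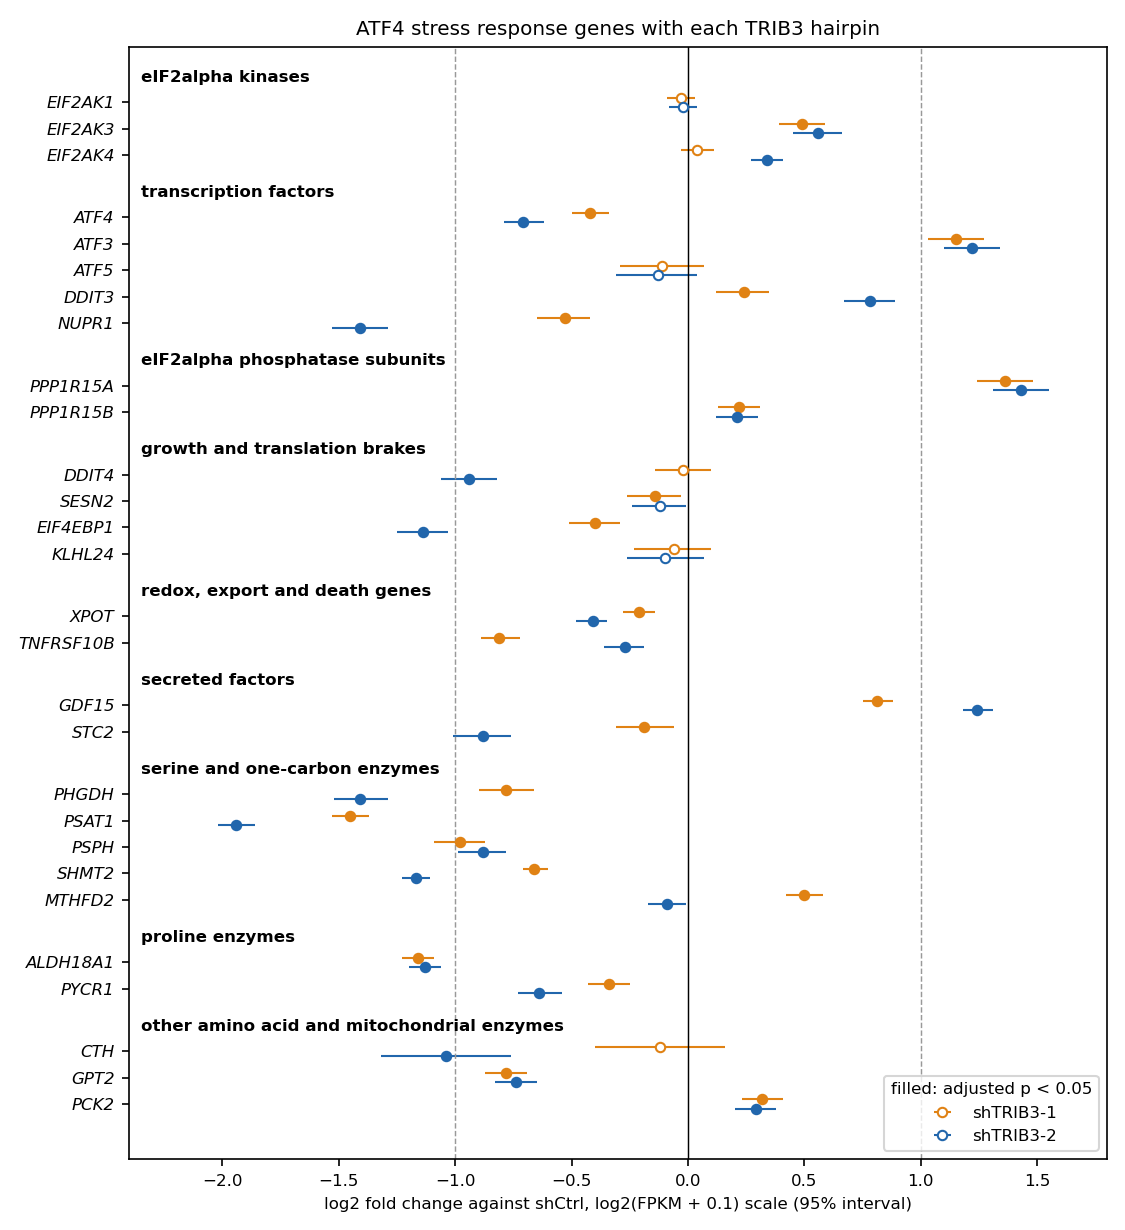
Log2 fold change of the 28 tested members against shCtrl on the log2(FPKM + 0.1) scale, grouped by role, for shTRIB3-1 (orange) and shTRIB3-2 (blue). Bars are 95% intervals from limma, filled points passed an adjusted p of 0.05, and dashed lines mark -1 and 1. The points run from PSAT1 at -1.45 and -1.94 to PPP1R15A at 1.36 and 1.43.

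The kinases at the head of the response were measured at their mRNA only, which says nothing of their activity. EIF2AK3, which encodes PERK, rose from 10.6 to 11.2 FPKM in shCtrl to 14.5 to 16.0 in shTRIB3-1 and 15.6 to 16.9 in shTRIB3-2, with log2 fold changes of 0.49 and 0.56. EIF2AK4, which encodes GCN2, did not pass the test with shTRIB3-1 (0.04, adjusted p = 0.324) and rose with shTRIB3-2 from 28.4-29.0 to 35.5-36.7 FPKM (0.34). EIF2AK1, which encodes HRI, lay between 57.48 and 59.99 FPKM in all 9 libraries. Its log2 fold changes were -0.03 (95% interval -0.09 to 0.03) and -0.02 (-0.08 to 0.04). The further eIF2alpha kinase gene EIF2AK2, outside the members, was lower with shTRIB3-1 (-0.16, adjusted p = 0.00336). It did not pass the test with shTRIB3-2 (0.03, adjusted p = 0.572).

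ATF4 (chr22:39519695-39522683, GRCh38, plus strand), the central factor, was listed at 52.1, 49.4 and 49.4 FPKM in shCtrl. Its level was 37.1, 37.4 and 38.3 FPKM in shTRIB3-1 and 29.3, 31.3 and 31.8 in shTRIB3-2. The groups did not overlap. The level had the same order as the remaining TRIB3, with 74.8% of the shCtrl mean left under shTRIB3-1 and 61.3% under shTRIB3-2. Depth of knockdown and hairpin sequence differ together here and cannot be told apart. On the log2 scale the changes were -0.42 ± 0.04 (SE, adjusted p = 6.58e-07) with shTRIB3-1 and -0.71 ± 0.04 (adjusted p = 4.65e-09) with shTRIB3-2, and the hairpins differed by -0.29 (adjusted p = 7.01e-05).

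DDIT3 (chr12:57516588-57521737, minus strand), which encodes CHOP, the pro-apoptotic partner of ATF4, moved the other way. Its FPKM was 18.9, 18.5 and 17.8 in shCtrl, 20.3, 23.1 and 21.8 in shTRIB3-1 and 30.6, 30.8 and 33.7 in shTRIB3-2, so that each group lay above the one before it. Fitted changes on the log2 scale were 0.24 ± 0.05 (SE, adjusted p = 0.00137) and 0.78 ± 0.05 (adjusted p = 4.04e-08), and shTRIB3-2 was above shTRIB3-1 by 0.54 (adjusted p = 6.66e-06). Of the exon bases of DDIT3, 31.6% lie opposite exons of MARS1 or MBD6, and the sources used here do not give whether reads were counted by strand. MARS1 itself had log2 fold changes of 0.03 and -0.29.

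ATF3 (chr1:212565334-212620777, plus strand), a stress-induced repressor, was listed at 6.45, 6.34 and 5.79 FPKM in shCtrl, at 13.1, 14.2 and 14.2 in shTRIB3-1 and at 14.4, 14.1 and 15.1 in shTRIB3-2. Every knockdown library was above every shCtrl library, while the knockdown groups overlapped. The log2 fold change was 1.15 ± 0.05 (SE, adjusted p = 1.79e-09) and 1.22 ± 0.05 (adjusted p = 8.96e-10). The difference between the hairpins was 0.07 (95% interval -0.05 to 0.19, adjusted p = 0.313).

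NUPR1 (chr16:28532708-28539008, minus strand), a small stress-induced chromatin protein, was lower with both hairpins, in the same order as the remaining TRIB3. Library by library it stood at 10.0, 9.26 and 9.53 FPKM in shCtrl, at 6.64, 6.50 and 6.71 in shTRIB3-1 and at 3.42, 3.74 and 3.49 in shTRIB3-2, with no overlap between groups. On the log2 scale the changes were -0.53 ± 0.05 (SE, adjusted p = 1.80e-06) and -1.41 ± 0.05 (adjusted p = 2.16e-10), and the hairpins differed by -0.88 (adjusted p = 1.55e-07). ATF5, a factor close to ATF4 in sequence, ranged from 10.9 to 14.0 FPKM with overlapping groups, and its log2 fold changes of -0.11 and -0.13 did not pass the test (adjusted p = 0.247 and 0.155). They passed when shCtrl replicate 2, the lowest control at 10.9 FPKM, was left out (-0.21, adjusted p = 0.0133, and -0.24, adjusted p = 0.00687).

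**Figure D2:**
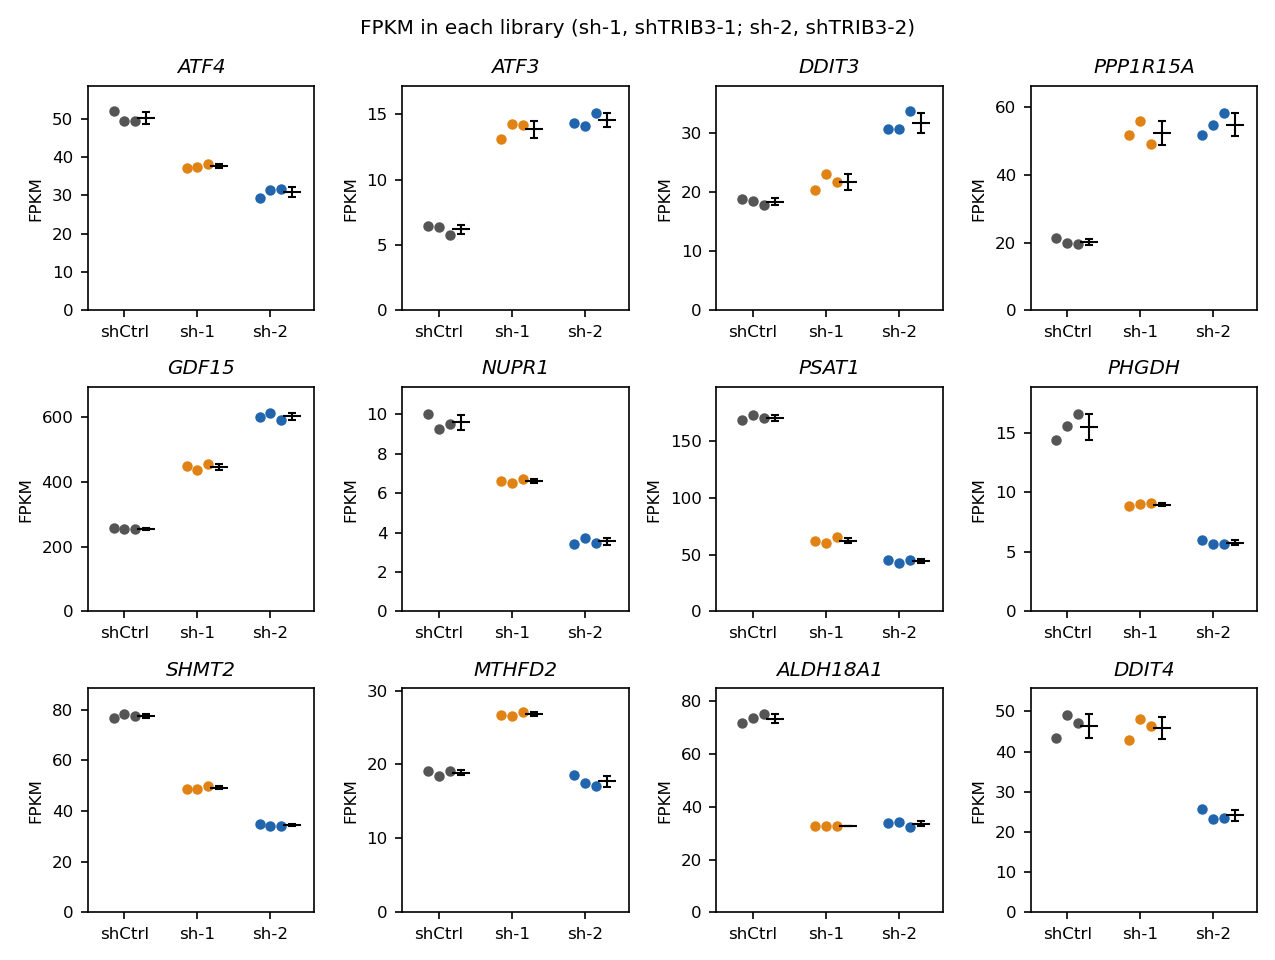
FPKM of 12 members in each of the 9 libraries (points; sh-1 and sh-2 are shTRIB3-1 and shTRIB3-2), with the group mean and SD (n = 3) beside them, all axes starting at 0. ATF4, NUPR1, PSAT1, PHGDH and SHMT2 step down from shCtrl through shTRIB3-1 to shTRIB3-2, DDIT3 and GDF15 step up, and MTHFD2 is highest in shTRIB3-1.

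The eIF2alpha phosphatase is steered by a stress-induced and a constitutive regulatory subunit. PPP1R15A (chr19:48872212-48876059, plus strand), which encodes the stress-induced subunit GADD34 and is a target of ATF4 and CHOP, had the largest log2 fold change upward among the tested members with each hairpin. It was listed at 21.4, 19.8 and 19.7 FPKM in shCtrl, at 51.9, 56.1 and 49.3 in shTRIB3-1 and at 51.7, 54.7 and 58.4 in shTRIB3-2. The knockdown groups overlapped each other and neither overlapped shCtrl. Fitted changes on the log2 scale were 1.36 ± 0.06 (SE, adjusted p = 5.36e-10) and 1.43 ± 0.06 (adjusted p = 2.67e-10), with a difference of 0.07 between the hairpins (95% interval -0.05 to 0.19, adjusted p = 0.351). The constitutive subunit PPP1R15B (CReP) rose by far less, from 9.38-10.0 FPKM in shCtrl to 11.2-11.5 in shTRIB3-1 and at most 11.4 in shTRIB3-2, or 0.22 and 0.21 on the log2 scale. Summed over both subunits, the level was 29.2 to 31.4 FPKM in the shCtrl libraries, 60.6 to 67.6 with the first hairpin and 62.7 to 69.7 with the second. Of the catalytic subunits they recruit, PPP1CB was lower with both hairpins (-1.15 and -1.05), as was PPP1CC (-0.65 and -0.67).

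Among the members that slow growth or translation, the effect differed by gene. EIF4EBP1, which encodes the cap-binding inhibitor 4E-BP1, was listed at 52.4, 45.7 and 48.5 FPKM in shCtrl, at 38.3, 35.7 and 36.7 in shTRIB3-1 and at 22.4, 21.2 and 22.5 in shTRIB3-2, with no overlap. Its log2 fold change was -0.40 ± 0.05 (SE, adjusted p = 1.05e-05) and -1.14 ± 0.05 (adjusted p = 6.87e-10). DDIT4, which encodes the mTORC1 inhibitor REDD1, was listed at 43.3, 49.1 and 47.0 FPKM in shCtrl and at 42.9, 48.2 and 46.4 in shTRIB3-1, which overlapped. Its FPKM was 25.6, 23.3 and 23.5 in shTRIB3-2, below all other libraries. The log2 fold change was -0.02 (95% interval -0.14 to 0.10) with shTRIB3-1 and -0.94 (-1.06 to -0.82) with shTRIB3-2, and the difference between hairpins passed the test (-0.92, adjusted p = 1.64e-07).

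SESN2 (chr1:28259518-28282491, plus strand), which encodes the leucine-sensing mTORC1 inhibitor sestrin 2, was near the threshold. Library by library it stood at 22.2, 21.4 and 20.6 FPKM in shCtrl, at 21.1, 18.5 and 18.5 in shTRIB3-1 and at 19.6, 18.9 and 20.4 in shTRIB3-2. The shCtrl and shTRIB3-1 libraries overlapped. On the log2 scale the changes were -0.14 ± 0.05 (SE, adjusted p = 0.0284) with shTRIB3-1 and -0.12 ± 0.05 (adjusted p = 0.0533) with shTRIB3-2, and both calls changed side under several alternatives. KLHL24, a ubiquitin ligase adaptor, lay between 2.601 and 3.009 FPKM in all libraries and did not pass the test with either hairpin (-0.06 and -0.10, adjusted p = 0.460 and 0.259).

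Of the secreted factors, GDF15 (chr19:18374731-18389176, plus strand), a stress hormone that curbs appetite, was the member with the highest FPKM in shCtrl. It was listed at 256.2, 252.7 and 252.5 FPKM in shCtrl, at 448.4, 435.8 and 453.5 in shTRIB3-1 and at 600.2, 610.7 and 591.2 in shTRIB3-2. The groups stood far apart. Fitted changes on the log2 scale were 0.81 ± 0.03 (SE, adjusted p = 1.86e-10) and 1.24 ± 0.03 (adjusted p = 4.46e-12), and shTRIB3-2 was above shTRIB3-1 by 0.43 (adjusted p = 3.75e-07). STC2, which encodes the glycoprotein stanniocalcin 2, went down instead, from 15.3-16.1 FPKM in shCtrl to 13.4-14.1 and 7.69-8.91, with log2 fold changes of -0.19 and -0.88. TNFRSF10B, which encodes the death receptor DR5 and is a target of CHOP, was lower with both hairpins although DDIT3 was higher. Its level was 53.5 to 56.3 FPKM in shCtrl, 30.2 to 31.9 in shTRIB3-1 and 42.9 to 46.9 in shTRIB3-2, so that here the hairpin with the weaker knockdown gave the larger decrease (-0.81 against -0.27, difference 0.54, adjusted p = 7.78e-07). XPOT, the exportin of tRNA, fell from 30.3-31.0 FPKM to 26.3-27.0 and 22.6-23.6, or by 0.21 and 0.41 on the log2 scale.

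The serine and one-carbon enzymes made up the group with the largest decrease in summed level. Summed over 6 members, the shCtrl libraries averaged 315.3 ± 5.20 FPKM (SD, n = 3), against 164.6 ± 3.56 after shTRIB3-1 and 120.2 ± 2.99 after shTRIB3-2. PSAT1 alone held 170.4, 62.4 and 44.5 FPKM of these means, so the sum follows it most. The means of MTHFD2 and ALDH1L2 were higher with shTRIB3-1 than in shCtrl. All 3 enzymes that make serine from a glycolytic intermediate were lower with both hairpins. PHGDH (chr1:119648411-119744218, plus strand), which catalyses the first step, was listed at 14.4, 15.5 and 16.5 FPKM in shCtrl, at 8.82, 8.98 and 9.05 in shTRIB3-1 and at 6.02, 5.64 and 5.65 in shTRIB3-2. The log2 fold change was -0.78 ± 0.05 (SE, adjusted p = 6.20e-08) and -1.41 ± 0.05 (adjusted p = 2.59e-10).

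PSAT1 (chr9:78297125-78330093, plus strand), the aminotransferase of the second step, had the largest decrease of all tested members with each hairpin. Its FPKM was 168.1, 173.1 and 170.1 in shCtrl, 61.7, 60.3 and 65.3 in shTRIB3-1 and 45.7, 42.8 and 45.1 in shTRIB3-2, with wide gaps between groups. On the log2 scale the changes were -1.45 ± 0.04 (SE, adjusted p = 1.24e-11) and -1.94 ± 0.04 (adjusted p = 8.21e-13), which left 36.6% and 26.1% of the shCtrl mean. PSPH, the phosphatase of the last step, fell from 30.5-33.9 FPKM to 15.4-16.8 and 16.6-18.0, or by 0.98 and 0.88 on the log2 scale, and unlike PHGDH and PSAT1 it did not pass the test between the hairpins (0.10, 95% interval -0.01 to 0.21, adjusted p = 0.125).

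SHMT2 (chr12:57229573-57234935, plus strand), which splits serine in mitochondria to feed the folate pool, was listed at 76.8, 78.3 and 77.4 FPKM in shCtrl, at 48.8, 48.8 and 49.8 in shTRIB3-1 and at 34.8, 34.1 and 34.3 in shTRIB3-2. Spread within groups was small against the gaps between them. Fitted changes on the log2 scale were -0.66 ± 0.03 (SE, adjusted p = 6.37e-10) and -1.17 ± 0.03 (adjusted p = 4.15e-12). MTHFD2, the mitochondrial folate enzyme that acts after SHMT2, was the only tested member that passed the test in opposite directions. Library by library it stood at 19.1, 18.5 and 19.1 FPKM in shCtrl, at 26.7, 26.6 and 27.1 in shTRIB3-1 and at 18.6, 17.5 and 17.1 in shTRIB3-2. The increase with shTRIB3-1 was 0.50 (adjusted p = 1.09e-07) with no overlap, whereas the decrease with shTRIB3-2 was -0.09 (adjusted p = 0.0434) with overlapping libraries and lost its call under 11 of the 19 alternatives tried.

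Of the proline enzymes, ALDH18A1 (chr10:95605941-95656711, minus strand), which encodes the synthase of the first step from glutamate, was listed at 71.5, 73.5 and 74.9 FPKM in shCtrl. Its level was 32.8, 32.7 and 32.8 FPKM in shTRIB3-1 and 33.7, 34.2 and 32.4 in shTRIB3-2, so that the knockdown groups overlapped. The log2 fold change was -1.16 ± 0.03 (SE, adjusted p = 2.18e-11) and -1.13 ± 0.03 (adjusted p = 1.87e-11), with a difference between the hairpins of 0.03 (95% interval -0.04 to 0.10). PYCR1, the reductase of the last step, fell from 85.6-87.3 FPKM to 63.5-71.3 and 54.0-57.1, or by 0.34 and 0.64.

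CTH (chr1:70411218-70439851, plus strand), which cleaves cystathionine to cysteine, was a low gene with 112 to 316 fragments a library. It was listed at 1.68, 1.67 and 1.85 FPKM in shCtrl, at 1.40, 1.84 and 1.54 in shTRIB3-1 and at 0.882, 0.674 and 0.824 in shTRIB3-2. The shTRIB3-1 libraries overlapped shCtrl and the shTRIB3-2 libraries lay below both. On the log2 scale the changes were -0.12 ± 0.13 (SE, adjusted p = 0.404) and -1.04 ± 0.13 (adjusted p = 9.91e-06), and with a pseudocount of 1 the latter was -0.61. GPT2, the mitochondrial alanine aminotransferase, fell with both hairpins, from 55.1-58.8 FPKM to 32.0-34.3 and 33.2-35.6 (-0.78 and -0.74, difference 0.04, 95% interval -0.05 to 0.13). PCK2, the mitochondrial phosphoenolpyruvate carboxykinase, rose from 41.4-44.5 to 52.7-55.4 and 49.8-55.0 FPKM (0.32 and 0.29).

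Direct comparison of the hairpins placed these changes beside the difference in remaining TRIB3. The hairpins also differ in sequence, so a difference between them cannot be assigned to the depth of knockdown. Between shTRIB3-2 and shTRIB3-1, 4 tested members were higher (14.3%, against 25.1% of all tested genes) and 12 were lower (42.9%, against 20.7%). The members higher in shTRIB3-2 were DDIT3, EIF2AK4, GDF15 and TNFRSF10B. No member passed the fold threshold in this comparison in limma's test, in either direction (0%, against 0.284% higher and 1.79% lower of all tested genes), and the count at an unadjusted p under 0.05 with the same fold was also 0. CTH, at -0.92, passed it when shTRIB3-1 replicate 1 was left out (adjusted p = 2.29e-04).

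Of the 13 members lower with both hairpins, 9 were further lower in shTRIB3-2, namely ATF4, NUPR1, EIF4EBP1, XPOT, STC2, PHGDH, PSAT1, SHMT2 and PYCR1. That is 69.2%, beside 967 (25%) of the 3867 tested genes that were lower with both. The members were chosen with earlier results known, and these shares were not matched for level or size of change. PSPH, ALDH18A1 and GPT2 did not pass the test between the hairpins, and TNFRSF10B was higher in shTRIB3-2. Of the 7 members higher with both, DDIT3 and GDF15 were further higher in shTRIB3-2, and EIF2AK3, ATF3, PPP1R15A, PPP1R15B and PCK2 did not pass the test between the hairpins, which is 28.6% further higher beside 31% of the 3162 tested genes higher with both. EIF2AK4, DDIT4 and CTH passed the test against shCtrl with shTRIB3-2 and not with shTRIB3-1, and for each of these the difference between the hairpins passed too.

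**Figure D3:**
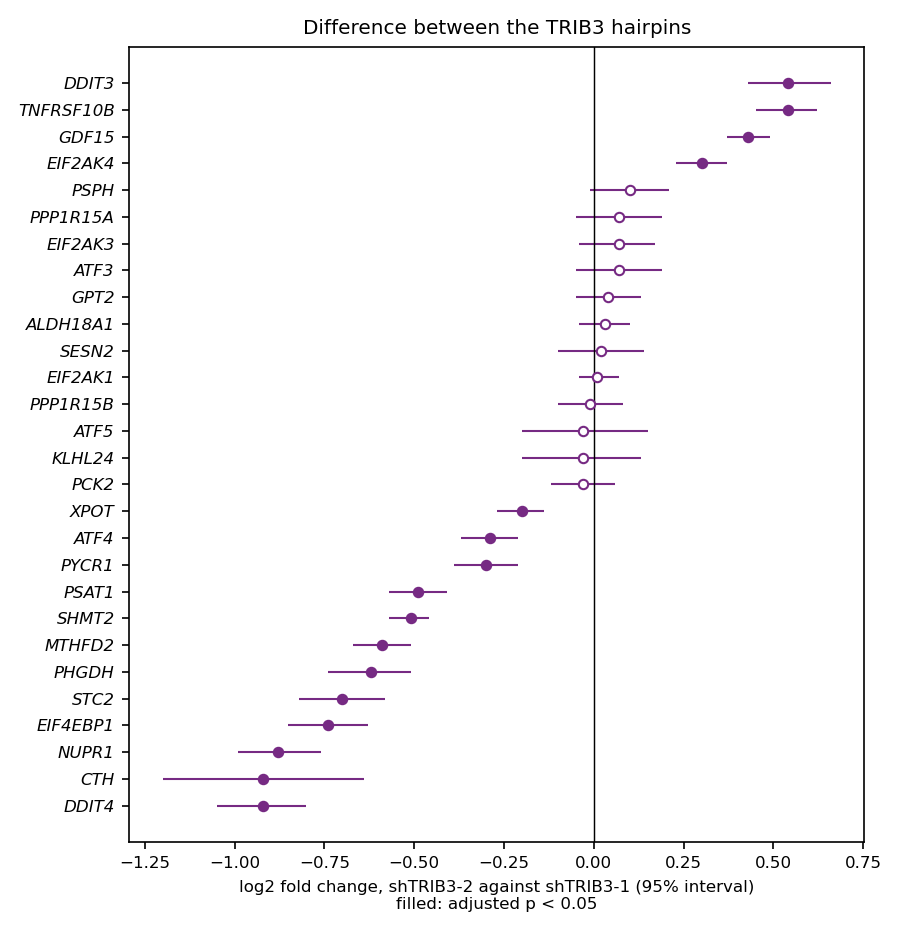
Log2 fold change of the 28 tested members in shTRIB3-2 against shTRIB3-1, sorted by size, with 95% intervals from limma and filled points past an adjusted p of 0.05. The values run from -0.92 for DDIT4 and CTH to 0.54 for DDIT3 and TNFRSF10B, and 12 members in the middle have open points.

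Below the filter lay 5 members. ASNS (chr7:97851677-97872542, minus strand), the asparagine synthetase and a classical target of ATF4, was listed at only 0.329, 0.213 and 0.259 FPKM in shCtrl (25 to 38 fragments), at 0.253, 0.217 and 0.240 in shTRIB3-1 (24 to 28) and at 0.0633, 0.0533 and 0.0353 in shTRIB3-2 (4 to 7). The shTRIB3-2 libraries lay below all others at 18.97% of the shCtrl mean. Fitted without the filter, the log2 fold change was -0.11 ± 0.16 (SE, adjusted p = 0.611) with shTRIB3-1 and -1.28 ± 0.16 (adjusted p = 1.48e-04) with shTRIB3-2, with a difference of -1.16 (adjusted p = 9.47e-04). Of the exon bases of ASNS, 49.3% are shared on the same strand with another annotated gene, and the table also lists CZ1P-ASNS, by its name a readthrough gene, at group means of 0.829, 0.768 and 0.580 FPKM with no call in limma's test (-0.12 and -0.45, adjusted p = 0.624 and 0.0578). How fragments were divided between these genes was not tested, so the low level of ASNS is that of its own row only.

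ALDH1L2, a mitochondrial folate dehydrogenase, was listed at 0.796 to 0.943 FPKM in shCtrl, 0.933 to 1.27 in shTRIB3-1 and 0.389 to 0.507 in shTRIB3-2. Fitted without the filter, its log2 fold changes were 0.28 (adjusted p = 0.187) and -0.84 (adjusted p = 0.00187). JDP2, a repressor of the AP-1 family, was listed at 0.412 to 0.436 FPKM in shCtrl, at 0.634 to 0.863 in shTRIB3-1 and at 0.321 to 0.391 in shTRIB3-2 (0.63, adjusted p = 0.0112, and -0.22, adjusted p = 0.338). CHAC1, which degrades glutathione and is a target of ATF4 and CHOP, had 0 to 3 fragments in each library. FGF21, a liver stress hormone, had 0 to 4 fragments. No fold is given for either, since these libraries could not show a change at that depth.

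Promoters of members that hold the letters of the composite C/EBP-ATF element were read because ATF4 is known to act through it. The core searched was TGATGNAA on both strands, in windows of 300 bases (250 before and 50 after a gene start) from RefSeq on GRCh38.p14, with no other motif searched. Windows were found for 24 of the 33 members, and 6 of these genes (25%) held the letters, beside 4.46% of all 27305 genes that had a window. The share was 2.6% among the 9088 tested genes that had one. Those leave out the holders ASNS, CHAC1, FGF21 and JDP2, which lay below the filter, so the 25% has no like share there. The set was chosen to hold genes that ATF4 is known to drive, so a higher share could follow from the choice alone. The 6 were ASNS, ATF3, CHAC1, FGF21, JDP2 and PPP1R15B. The windows of the 4 with the largest change that hold it follow, each 5′ to 3′ on the strand of its gene, with the matching letters in capitals.

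ATF3, chr1:212565157-212565456, plus strand: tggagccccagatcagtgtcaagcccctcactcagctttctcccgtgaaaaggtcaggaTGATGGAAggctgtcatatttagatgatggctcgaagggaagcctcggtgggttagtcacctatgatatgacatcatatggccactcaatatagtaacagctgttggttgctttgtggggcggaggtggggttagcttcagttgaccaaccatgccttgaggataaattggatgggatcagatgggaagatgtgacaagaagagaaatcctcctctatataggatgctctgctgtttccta
ASNS, chr7:97872359-97872658, minus strand: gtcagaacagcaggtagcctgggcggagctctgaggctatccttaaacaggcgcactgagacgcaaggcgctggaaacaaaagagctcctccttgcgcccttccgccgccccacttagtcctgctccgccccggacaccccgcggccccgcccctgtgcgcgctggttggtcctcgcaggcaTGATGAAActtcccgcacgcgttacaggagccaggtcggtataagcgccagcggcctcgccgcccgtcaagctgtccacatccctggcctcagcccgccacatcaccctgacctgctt
JDP2, chr14:75427772-75428071, plus strand: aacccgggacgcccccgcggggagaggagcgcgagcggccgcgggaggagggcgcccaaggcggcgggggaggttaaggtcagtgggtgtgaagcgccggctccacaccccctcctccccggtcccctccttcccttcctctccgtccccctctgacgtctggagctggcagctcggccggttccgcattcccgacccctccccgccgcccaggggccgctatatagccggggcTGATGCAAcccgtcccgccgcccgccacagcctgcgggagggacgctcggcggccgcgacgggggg
PPP1R15B, chr1:204411768-204412067, minus strand: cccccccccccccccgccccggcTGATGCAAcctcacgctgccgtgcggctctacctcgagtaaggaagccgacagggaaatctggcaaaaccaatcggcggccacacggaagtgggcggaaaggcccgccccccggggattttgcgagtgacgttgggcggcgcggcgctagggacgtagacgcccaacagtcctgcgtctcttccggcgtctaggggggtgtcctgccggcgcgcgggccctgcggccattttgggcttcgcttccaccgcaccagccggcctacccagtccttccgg

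The letters began at position -191 from the gene start in ATF3, -68 in ASNS, -16 in JDP2 and -227 in PPP1R15B, as written in each case. ATF3 and PPP1R15B, the holders that could be tested, were both higher with both hairpins, and ASNS, CHAC1, FGF21 and JDP2 were the holders below the filter. For ATF3, ASNS and JDP2 the letters lay only in the window shown, and windows at other starts of these genes held none. Which starts these cells use was not tested. A match is a description of the letters and not a site of binding, and no binding was measured in these samples.

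Other genes of the pathway were described by lists outside the 33 members, and no list was tested as a set. The counts of every list below are to be read beside the shares of all tested genes. With shTRIB3-1, 32.9% of these were higher and 41.5% lower, and with shTRIB3-2, 35.4% and 40.5%. Between the hairpins, 25.1% were higher and 20.7% lower in shTRIB3-2. Of 12 cytosolic aminoacyl-tRNA synthetases, which charge tRNA and are known as ATF4 targets, 4 were higher and 4 lower with shTRIB3-1, and 1 was higher and 9 lower with shTRIB3-2. Between the hairpins all 12 were lower in shTRIB3-2, at a median of -0.32 on the log2 scale beside 0.03 for all tested genes. AARS1 (alanine) had -0.34 and -0.66, EPRS1 (glutamate and proline) -0.21 and -0.65, and NARS1 (asparagine) -0.20 and -0.37 against shCtrl. CARS1 (cysteine), chosen after its values were seen, went the other way with shTRIB3-1, from a mean of 11.2 FPKM in shCtrl to 16.5 (0.56, adjusted p = 6.51e-07), and had no call with shTRIB3-2 (10.7 FPKM, -0.06, adjusted p = 0.288).

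Of 15 transporters and other secreted or membrane targets, 7 were higher and 5 lower with shTRIB3-1, and 4 were higher and 8 lower with shTRIB3-2. The glycine transporter SLC6A9 fell by 0.57 and 1.42 on the log2 scale and the amino acid transporter SLC43A1 by 0.63 and 0.67. CDKN1A, the cell cycle inhibitor p21 and on this list as a stress target, rose from a mean of 77.5 FPKM to 147.5 and 206.2 (0.93 and 1.41). The transporters went both ways. Chosen after their values were seen, SLC3A2 (0.50 and 0.31) and SLC38A2 (0.42 and 0.34) were higher with both hairpins, and SLC1A4 was lower (-0.38 and -0.72). Between the hairpins, 8 of the 15 were lower in shTRIB3-2 and 1 was higher.

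Among 13 partners and feedback genes of ATF4, 5 were higher and 6 lower with shTRIB3-1, and 6 were higher and 5 lower with shTRIB3-2. CEBPD, a C/EBP factor, fell from 15.9 FPKM to 5.63 and 4.47 (-1.47 and -1.80), and FOSL1, an AP-1 subunit, rose from 10.5 to 29.0 and 33.4 (1.48 and 1.68). TRIB3 is itself on this list. A list of 17 genes held subunits of eIF2 and eIF2B, regulators of the kinases, EIF2AK2 and the phosphatase subunits PPP1CA, PPP1CB and PPP1CC. Of these, 1 was higher and 10 lower with shTRIB3-1, and 3 were higher and 10 lower with shTRIB3-2. The lower genes included PPP1CA, PPP1CB and PPP1CC with both hairpins and EIF2AK2 with shTRIB3-1. EIF2B3 was at -0.48 and -0.58.

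Paralogs of several members, outside the set, were placed beside them. Of 19 tested paralogs and pathway neighbours, 7 were higher and 9 lower with shTRIB3-1 and 6 were higher and 10 lower with shTRIB3-2. The shares of all tested genes were 32.9% higher and 41.5% lower with shTRIB3-1, and 35.4% and 40.5% with shTRIB3-2. PCK1, the cytosolic partner of PCK2, rose from 1.46 FPKM to 17.8 and 8.65 (3.52 and 2.49). PRODH, which degrades proline and so works against ALDH18A1 and PYCR1, rose from 0.490 FPKM to 1.84 and 3.87 (1.73 and 2.77), and TNFRSF10A, the death receptor DR4, rose (1.13 and 1.32) where TNFRSF10B fell. The cytosolic SHMT1 was lower like SHMT2 (-0.69 and -0.92). The cytosolic GPT did not pass the test where GPT2 fell (-0.09 and 0.07, adjusted p = 0.575 and 0.667), and EIF4EBP2 was lower with both hairpins like EIF4EBP1 (-0.66 and -0.42).

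**Figure D4:**
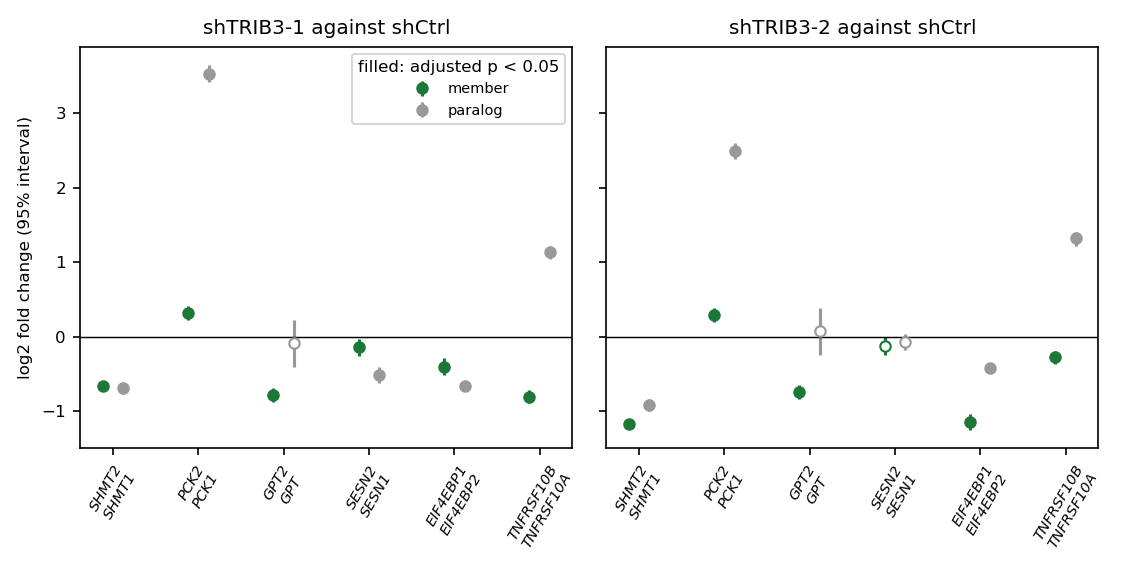
Log2 fold change against shCtrl, with 95% intervals, for 6 members (green) and the paralog beside each (grey), with shTRIB3-1 in the left panel and shTRIB3-2 in the right. Filled points passed an adjusted p of 0.05. PCK1 at 3.52 and 2.49 stands above PCK2 at 0.32 and 0.29, and TNFRSF10A lies above 0 where TNFRSF10B lies below it.

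Other features of the libraries moved with the hairpins. All 6 proliferation markers were lower with both hairpins. Their summed FPKM was 450.3 to 453.3 in shCtrl, 124.0 to 126.3 in shTRIB3-1 and 78.7 to 79.6 in shTRIB3-2. TRIB3, ATF4 and the summed level of the serine and one-carbon enzymes had the same order, which MTHFD2, PSPH and ALDH1L2 did not follow singly. The part of proliferation in the decreases of ATF4 and of these enzymes was not tested. All 10 hepatocyte markers were present in every library, with sums of 7843 to 8510 FPKM in shCtrl, 8337 to 8746 in shTRIB3-1, then 10298 to 10594 in shTRIB3-2. ALB, the albumin gene, made up most of these sums (means of 5213.4, 5072.6 and 6645.1 FPKM), and single markers went both ways, with TTR at 1.08 and 1.71, APOA1 at 0.63 and 0.70 and FGB at -0.92 and -0.47 on the log2 scale against shCtrl. The 6 fibroblast and 5 endothelial markers summed to at most 0.21 and 0.314 FPKM in any library. Of the 6 leukocyte markers, LYZ, a lysozyme gene, made up nearly all of the summed level (1023 to 1147 FPKM in shCtrl, 495 to 525 in shTRIB3-1 and 580 to 618 in shTRIB3-2), with PTPRC and CD3E at or near 0. Total fragments ran from 34206726 to 36311029 a library, so depth differed by a ratio of 1.06. Levels between genes rest on the gene length behind the FPKM, which was 2.95 times the annotated exon bases for ATF4 and 0.24 times for EIF2AK3, whereas comparisons of a gene between groups do not depend on it. Other annotated genes share 16.5% of the exon bases of NUPR1 and 14.1% of those of PYCR1 on the same strand, and 19.5% of those of ATF5 lie opposite other genes. Annotated pseudogenes named after ATF4, ASNS, EIF2AK1, EIF4EBP1, MTHFD2, PSAT1, PSPH and XPOT exist, and how reads shared with them were counted is not given in the sources used here.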

How the data were processed

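RNA-seq libraries of HepG2 cells were analysed from the FPKM table that the authors deposited, with 1 column for each of 9 libraries. The methods of the study name STAR as the aligner and GRCh38 as the genome, and the submitters' processing notes name HTSeq and R 3.2.0 without a role. The methods describe a strand-specific library kit, in a section on cells deprived of glutamine, and the labels of these samples name another kit. The annotation, the gene lengths and whether fragments were counted by strand are not given in the sources used here. FPKM was scaled by the authors to gene length and library total, and no further scaling was applied. Columns of the authors' own comparisons were not used.

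Libraries were grouped by their titles. Genes with an FPKM of at least 1 in at least 3 of 9 libraries (11265 of 24204) were tested on log2(FPKM + 0.1) with limma 3.58.1 in R 4.3.3, using 1 fit of 3 group means over all 9 libraries, a mean-variance trend, two-sided moderated tests and Benjamini-Hochberg adjustment over all genes tested. DESeq2, named in the methods, needs counts and was not used. Members and other lists were chosen with earlier results of these data known. Named with full statistics were the members past the fold threshold in any comparison, ATF4, and the starvation genes ASNS, DDIT3 and SESN2. From each other list, up to 3 genes with the largest absolute value of the log2 fold change averaged over both hairpins were named, plus paralogs of members, not all of which are reported here.

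Whole fragments were worked out from the steps of the FPKM values, and 172769 of 172769 values above 0 (100%) came within 0.02 of a whole number, giving totals of 34206726 to 36311029. A length that made a gene's values whole was searched for, so this share is partly set by the search, above all for genes with few values above 0. The recovered fragments give depth, fragment counts, gene lengths and the comparison of replicates below, and enter no test whose values are given here. A fit of them by limma's voom with TMM scaling was run and then dropped, since it models counts and the table holds FPKM. No pair of replicates agreed within sampling noise (chi-square per degree of freedom 3.22 to 7.88). Deviations of same-numbered libraries correlated at -0.0742 to 0.0933, so the numbers were not taken as pairs. Alternatives were another pseudocount, filter, scaling, variance model or set of groups, a replicate block, and leaving out each library. Target positions and exon overlaps came from GENCODE v44 and promoters from RefSeq. Amino acid sequences were not analysed here.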

Additional observations from a re-analysis of the deposited data

Results flagged for a closer look

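MTHFD2, the mitochondrial folate enzyme, is listed because the TRIB3 hairpins moved it in opposite directions against shCtrl and the difference between them passed limma's test. In shCtrl it averaged 18.9 ± 0.331 FPKM (SD, n = 3), against 26.8 ± 0.255 after shTRIB3-1 and 17.7 ± 0.743 after shTRIB3-2. The log2 fold change of shTRIB3-2 against shTRIB3-1 was -0.59 (95% interval -0.67 to -0.51, adjusted p = 2.01e-07). The increase with shTRIB3-1 held under all 19 alternatives, and the decrease with shTRIB3-2 did not. Of its exon bases, 14.2% lie opposite other annotated genes, and 7 pseudogenes are named after it.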

How the results depend on the processing

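Of 84 results for tested members, 76 kept their side of the threshold under all the alternatives that could be computed for them, 8 changed side under at least 1, and 0 passed the test in the opposite direction. The 62 results that passed the test kept their sign under these alternatives, and 11 of the 22 that did not pass changed sign under at least 1 of them. The 8 belonged to SESN2 and ATF5 with both hairpins, and to EIF2AK1, EIF2AK4 and STC2 with shTRIB3-1 and MTHFD2 with shTRIB3-2. The decrease of SESN2 with shTRIB3-1 lost its call under 8 of 19 alternatives (largest adjusted p = 0.284, with median centring), and the decrease with shTRIB3-2 gained one under 7, as with the replicate block, where its adjusted p was 0.0361. Beyond that, the replicate block changed no call of a tested member (17 in place of 16 lower with shTRIB3-2).

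The count of members past the fold threshold between the hairpins, 0, became 2 with no filter on low values (ASNS and ALDH1L2). Over the alternatives to that fit, the difference ran from -2.05 to -0.24 for ASNS and from -1.27 to -0.53 for ALDH1L2. With the filter, leaving out each library in turn gave a count of 0 to 1, the 1 being CTH without shTRIB3-1 replicate 1. The cause was not tested. No other count of members moved by more than 1.5 times.

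STC2 with shTRIB3-1 had an adjusted p of 0.0578 after median centring. The median of all tested genes was -0.06 and -0.03 against shCtrl as deposited, and -0.11 and -0.06 as TPM. Fragments were few for ASNS, CHAC1 and FGF21, and with 3 libraries a group small differences such as those of ATF5, KLHL24 and EIF2AK1 were not resolved. Leaving out a library left 2 in its group. The planned voom with TMM on recovered fragments was run and then dropped, since it models counts and the table holds FPKM. It placed CTH past the fold threshold between the hairpins, where limma on FPKM placed 0 members, and it gained or lost calls of EIF2AK4, ALDH1L2 and SESN2 with shTRIB3-1 and MTHFD2 with shTRIB3-2. Its values are not given.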

Other observations

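SLC1A5, the neutral amino acid and glutamine transporter, rose from a mean of 33.04 FPKM in shCtrl to 55.5 in shTRIB3-1 and was at 30.5 in shTRIB3-2, with log2 fold changes of 0.75 (adjusted p = 1.75e-09) and -0.12 (adjusted p = 0.00922) and a difference between the hairpins of -0.86 (adjusted p = 5.81e-09, limma). Its order over the groups was that of MTHFD2. The cystine transporter SLC7A11 had -0.11 (adjusted p = 0.0650) and -0.75 (adjusted p = 4.78e-08), the order of ASNS, CTH and DDIT4. These genes were chosen after their values were seen.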
